A study of Mus musculus with 4 samples.

Results

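The genes described here are Trp53, which encodes the transcription factor p53, and 9 of the genes that p53 is known to induce: Cdkn1a, Mdm2, Ccng1, Sesn1, Trp53inp1, Aen, Zmat3, Phlda3 and Btg2. They were taken by name, with earlier results of these data known. All 10 were present among the 16338 rows measured, and all 10 lay far above the low values of the files. RNA sequencing was done on mouse T cells with either of 2 antigen receptors, called TRP1high and TRP1low, 48 h after they met B cells loaded with 1 of 2 peptides, called K8 and M9. The T cells were sorted away from the B cells before total RNA was made. The 4 groups were thus the TRP1high and the TRP1low cells, each with either peptide, and each group had 1 library. All of them shared the co-culture with B cells, the sort and the time, and an unstimulated group was not analysed here. Mouse strain, sex, age and the way the receptors were introduced were not stated in the labels. With 1 library in each group no difference has a replicate check, and none was tested.

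p53 is kept at a low protein level in unstressed cells, because MDM2, the product of one of its own target genes, marks it for degradation. DNA damage and other stresses release it, and it then switches on genes that stop the cell cycle, repair DNA, restrain growth signalling or start cell death. T cells divide fast after antigen contact and go through replication stress in doing so. The amount of p53 is set largely at the protein level, which RNA does not show, and several of the target genes also answer to other transcription factors.

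The p53 element used here is a 20-base consensus made of 2 palindromic repeats with no bases between them, which reads the same on both strands. It was searched for in the RefSeq promoter windows of build GRCm38.p6 (mm10), each of 300 bases, from 250 bases before an annotated transcript start to 50 after it. Windows were found for 8 of the 10 genes, 11 windows in all. The sequences below are the best match in a window for the 5 genes with at least 17 of 20 bases in the consensus, shown because they are the closest matches to that element among these genes. Capitals mark bases that fit the consensus and lower case those that do not.
Cdkn1a: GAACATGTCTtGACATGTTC
Ccng1: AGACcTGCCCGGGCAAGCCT
Aen: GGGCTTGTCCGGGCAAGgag
Trp53: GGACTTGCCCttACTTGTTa
Sesn1: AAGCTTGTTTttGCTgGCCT
In Cdkn1a, 19 of 20 bases fitted, at chr17:29090928-29090947 on the plus strand, 51 to 32 bases before the more upstream of its 2 starts. In Ccng1, 19 of 20 bases fitted, at chr11:40755462-40755481 on the minus strand, 195 to 176 bases before the start. A match of at least 19 bases was held by 29 of all 32851 promoter windows (0.0883%). The matches of Aen (chr7:78895937-78895956, plus strand, 121 to 102 bases before the more downstream start), Trp53 (chr11:69580284-69580303, plus strand) and Sesn1 (chr10:41887266-41887285, plus strand, in the window of the more downstream of 2 starts) had 17 of 20, a level that 6.29% of all windows reached. The best matches of Btg2 (16 bases), Mdm2 (15) and Phlda3 (15) were at levels that 30.2% and 76.6% of windows reached. Paired CATG letters with any 6 bases between them (CATGNNNNNNCATG, which also reads the same on both strands) stood in 0.712% of windows and, of the 11 windows here, in that of Cdkn1a. A match is a description of letters in the window. Sites farther from the start, and sites with bases between the 2 repeats, were not searched.

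The 250 bases before the start are given whole for the 2 genes with the closest matches, with the matching 20 bases in capitals. They cover chr17:29090729-29090978 on the plus strand for Cdkn1a and chr11:40755287-40755536 on the minus strand for Ccng1.
Cdkn1a: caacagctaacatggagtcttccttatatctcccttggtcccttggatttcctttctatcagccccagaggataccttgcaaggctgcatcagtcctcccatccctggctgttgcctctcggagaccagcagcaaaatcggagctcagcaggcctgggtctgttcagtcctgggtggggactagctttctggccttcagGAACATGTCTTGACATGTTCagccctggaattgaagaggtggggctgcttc
Ccng1: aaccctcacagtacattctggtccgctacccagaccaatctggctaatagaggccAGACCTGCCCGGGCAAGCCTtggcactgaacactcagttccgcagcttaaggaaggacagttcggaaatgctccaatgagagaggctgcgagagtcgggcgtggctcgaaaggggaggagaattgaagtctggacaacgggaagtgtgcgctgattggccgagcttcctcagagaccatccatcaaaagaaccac
As described below, these 2 genes differed in their pattern over the libraries: Ccng1 was lower with M9 in both receptors, and Cdkn1a was lower with M9 in TRP1low and higher with M9 in TRP1high.

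Values are normalized counts, which the authors deposited as log2 values after adding 1, and a log2 difference is taken between 2 deposited values. A fold is the ratio of 2 normalized counts, and the interval after it is the 95% exact (Clopper-Pearson) interval from the estimated reads. Without molecular identifiers that interval reflects counting error alone, and it leaves out any variation between cultures. The libraries held 29.6 M to 41.5 M estimated reads, with the fewest in TRP1low with K8. Each of the 10 genes had at least 541 estimated reads in every library. The T cell genes Cd8a and Cd8b1 were abundant in all 4 libraries, with 39141 to 58113 normalized counts for the pair. Cd4 was low in all of them, at log2 1.64 with K8 and 0 with M9 in TRP1high, and at 4.73 with K8 and 4.27 with M9 in TRP1low. Summed over 10 B cell markers, the level was 1961 normalized counts with K8 and 156 with M9 in TRP1high, and 989 with K8 and 373 with M9 in TRP1low, and Pax5 and Fcrla were among those at 0 in TRP1high with M9. Summed over 3 erythroid markers, it was 152 in TRP1low with K8 and at most 6.42 in the other libraries, and over the 5 of 6 myeloid markers in the files it was 152 in TRP1low with K8 against 63.6 to 115. In bulk RNA, fewer cells of a kind and less RNA per cell cannot be told apart.

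**Figure D1:**
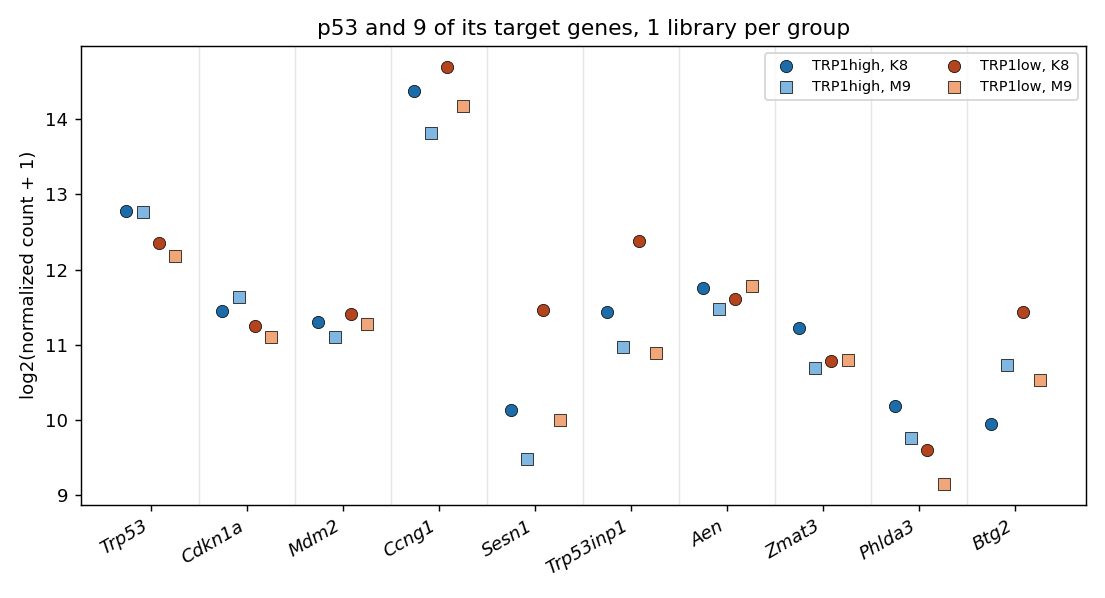
Level of each of the 10 genes in each library, as log2(normalized count + 1), with 1 point per library and no replicates. Blue points are TRP1high and orange points TRP1low, circles K8 and squares M9. Trp53, Cdkn1a and Phlda3 have both TRP1high points above both TRP1low points. Mdm2, Ccng1, Sesn1 and Trp53inp1 have both K8 points above both M9 points. TRP1low with K8 is on top for Mdm2, Ccng1, Sesn1, Trp53inp1 and Btg2.

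Trp53 itself (ENSMUSG00000059552, chromosome 11, 69580359 to 69591873, mm10) was abundant and higher in TRP1high than in TRP1low with either peptide. It stood at 6995 normalized counts with K8 and 6936 with M9 in TRP1high, and at 5212 with K8 and 4629 with M9 in TRP1low. Both TRP1high libraries were above both TRP1low libraries, while within TRP1high the 2 peptides were 1.01-fold apart, with an interval (0.975 to 1.04) that includes no difference. In TRP1low M9 was 1.13-fold below K8 (1.08 to 1.18). TRP1high was 1.34-fold higher than TRP1low with K8 (1.29 to 1.40) and 1.498-fold higher with M9 (1.44 to 1.56). Of all genes, 22.7% had both TRP1high libraries above both TRP1low libraries, and so did 3 of 10 members (Trp53, Cdkn1a and Phlda3). The opposite order was held by 25.1% of all genes and by 0 members. Trp53 has a processed pseudogene, Trp53-ps, that has no row in the files, and reads of so near a copy may have been counted with Trp53.

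Among the genes that feed back on p53, Mdm2 was nearly level and Ccng1 followed the peptide. Mdm2 (chromosome 10, 117688875 to 117710758), which encodes the ubiquitin ligase that degrades p53, stood at 2525 normalized counts with K8 and 2189 with M9 in TRP1high, and at 2727 with K8 and 2483 with M9 in TRP1low. Its highest and lowest libraries were 1.25-fold apart. M9 was below K8 in each receptor, 1.15-fold in TRP1high (1.09 to 1.22) and 1.098-fold in TRP1low (1.03 to 1.17), and TRP1high with K8 and TRP1low with M9 did not differ beyond counting error.

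Ccng1 (chromosome 11, 40748552 to 40755311) encodes cyclin G1, which brings a phosphatase to MDM2. It stood at 21292 normalized counts with K8 and 14396 with M9 in TRP1high, and at 26545 with K8 and 18535 with M9 in TRP1low. Both K8 libraries were above both M9 libraries, and within each peptide TRP1low was above TRP1high. M9 was 1.48-fold below K8 in TRP1high (1.45 to 1.51) and 1.43-fold below it in TRP1low (1.40 to 1.46), log2 differences of -0.56 and -0.52. The difference between these was -0.05. Per kilobase of its principal GENCODE transcript, Ccng1 was the highest of the 10 genes in all 4 libraries, at 4099 to 7559 normalized counts per kilobase, followed by Trp53 at 2614 to 3950.

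Of the 2 members best known for holding back the cell cycle, Cdkn1a had a range of 1.44-fold and Btg2 varied more, with the combination of receptor and peptide. Cdkn1a (chromosome 17, 29090976 to 29100727) encodes p21, the inhibitor of cyclin-dependent kinases through which p53 arrests the cycle. It stood at 2792 normalized counts with K8 and 3190 with M9 in TRP1high, and at 2439 with K8 and 2208 with M9 in TRP1low, so that both TRP1high libraries were above both TRP1low libraries. With M9 it was 1.14-fold higher in TRP1high (1.09 to 1.202) and 1.10-fold lower in TRP1low (1.04 to 1.18), and with M9 TRP1high was 1.44-fold above TRP1low (1.37 to 1.53). Per kilobase it was the third of the 10 genes in every library, at 1061 to 1534.

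Btg2 (chromosome 1, 134075170 to 134079120) encodes an antiproliferative protein that binds the CCR4-NOT complex, which shortens mRNA tails. It stood at 981 normalized counts with K8 and 1699 with M9 in TRP1high, and at 2778 with K8 and 1476 with M9 in TRP1low. The highest and the lowest library were the 2 K8 libraries, and the M9 libraries lay between them. With M9 it was 1.73-fold higher in TRP1high (1.60 to 1.87) and 1.88-fold lower in TRP1low (1.76 to 2.02). With K8, TRP1high was 2.83-fold below TRP1low (2.62 to 3.06), and with M9 it was 1.15-fold above (1.07 to 1.24). The log2 differences between the peptides, 0.79 and -0.91, were 1.70 apart, the widest gap among the 10 genes. B cells express Btg2 too. The summed B cell markers were highest in TRP1high with K8, where Btg2 was lowest, at 1961 normalized counts, and stood at 989 in TRP1low with K8, where Btg2 was highest; their part in its level was not tested.

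Sesn1 and Trp53inp1 had the widest differences between the peptides, both in TRP1low. Sesn1 (chromosome 10, 41809935 to 41908424) encodes sestrin 1, a stress protein that restrains the growth kinase complex mTORC1. It stood at 1119 normalized counts with K8 and 716 with M9 in TRP1high, and at 2829 with K8 and 1023 with M9 in TRP1low. TRP1low with K8 stood apart above the other 3 libraries, 2.53-fold over the next (2.35 to 2.72). M9 was 1.56-fold below K8 in TRP1high (1.42 to 1.72) and 2.77-fold below it in TRP1low (2.56 to 2.99). Per kilobase, Sesn1 was the fourth of the 10 genes in TRP1low with K8 (1088), and the ninth in TRP1high with M9 (276). A gene model without a row in the files, 9930024M15Rik, overlaps Sesn1 on the same strand over 2584 bases, and its reads may have been counted with Sesn1.

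Trp53inp1 (chromosome 4, 11156431 to 11174379) encodes a p53-inducible protein that takes part in cell death and autophagy. It stood at 2756 normalized counts with K8 and 2010 with M9 in TRP1high, and at 5342 with K8 and 1900 with M9 in TRP1low. As for Sesn1, TRP1low with K8 was well above the next library, here 1.94-fold (1.85 to 2.04), and the 2 M9 libraries were not apart beyond counting error. M9 was 1.37-fold below K8 in TRP1high (1.29 to 1.45) and 2.81-fold below it in TRP1low (2.66 to 2.97), and these log2 differences (-0.46 and -1.49) were 1.04 apart.

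**Figure D2:**
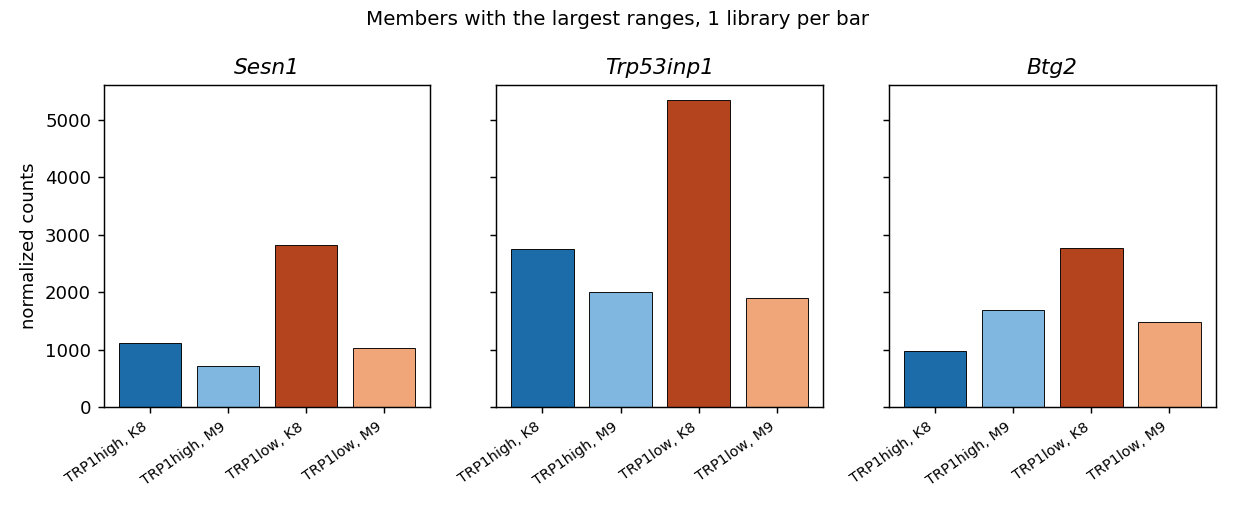
Normalized counts of Sesn1, Trp53inp1 and Btg2, the 3 members with the widest range, with 1 bar per library and no replicates. In each, TRP1low with K8 is the tallest bar (2829, 5342 and 2778). TRP1high with M9 is below TRP1high with K8 for Sesn1 and Trp53inp1 and above it for Btg2.

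The 3 libraries below TRP1low with K8 did not share 1 order for these genes. The erythroid and myeloid marker sums were highest in TRP1low with K8 as well, at 152 normalized counts each, and this library had the fewest reads. Their part in the levels of Sesn1, Trp53inp1 and Btg2 was not tested.

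The 3 other members, Phlda3, Aen and Zmat3, varied by no more than 2.05-fold. Phlda3 (chromosome 1, 135766119 to 135769136), whose product blocks the survival kinase AKT at the membrane, stood at 1163 normalized counts with K8 and 863 with M9 in TRP1high, and at 778 with K8 and 568 with M9 in TRP1low. Its receptor and peptide differences stacked: TRP1high was 1.49-fold above TRP1low with K8 (1.35 to 1.65) and 1.52-fold above it with M9 (1.36 to 1.70), while M9 was 1.35-fold below K8 in TRP1high (1.23 to 1.47) and 1.37-fold below it in TRP1low (1.22 to 1.55). The peptide differences of the 2 receptors were 0.02 apart on the log2 scale. The middle pair of libraries, TRP1high with M9 and TRP1low with K8, was not apart beyond counting error.

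Aen (chromosome 7, 78895854 to 78911209) encodes an apoptosis-enhancing nuclease. It stood at 3466 normalized counts with K8 and 2835 with M9 in TRP1high, and at 3128 with K8 and 3530 with M9 in TRP1low, a range of 1.25-fold. M9 was 1.22-fold below K8 in TRP1high (1.16 to 1.29) and 1.13-fold above it in TRP1low (1.07 to 1.19). Zmat3 (chromosome 3, 32334792 to 32366014), which encodes a zinc finger protein that binds RNA, stood at 2385, 1656, 1763 and 1772 in the same order. Its TRP1high library with K8 was 1.35-fold above the next (1.26 to 1.43), and the other 3 libraries were not apart from their neighbours beyond counting error. Per kilobase, Zmat3 was the lowest of the 10 genes in every library, at 212 to 306.

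Over the 10 genes, 8 were lower and 2 higher with M9 than with K8 in each receptor. The higher ones were Cdkn1a and Btg2 in TRP1high, and Aen and Zmat3 in TRP1low. Thus 6 genes (Trp53, Mdm2, Ccng1, Sesn1, Trp53inp1 and Phlda3) were lower with M9 in both and 0 were higher in both. The differences of Trp53 in TRP1high and of Zmat3 in TRP1low lay within counting error. The share of all genes lower in a single receptor was not counted, so nothing is read from the 8 of 10 about the members. The count lower in both fell to 5 with median log2 ratios set to 0 and with equal upper quartiles, where Trp53 changed sign in TRP1high, and rose to 7 with equal totals, where Zmat3 changed sign in TRP1low and 9 genes were lower there. Of all 16102 genes whose mean reached 1 normalized count, 29.8% were lower with M9 in both receptors and 28.8% higher in both, whatever the size. The median log2 difference of the 10 genes was -0.36 in TRP1high and -0.31 in TRP1low, against -0.02 and 0.02 over all genes. Differences of at least 2-fold in genes that reached 10 normalized counts in either library of the pair were fewer. In TRP1high 0 of 10 members passed, where 5.14% of all genes were higher and 4.73% lower by that rule. In TRP1low 2 of 10, Sesn1 and Trp53inp1, were lower and 0 higher, where 7.43% of all genes were lower and 7.67% higher. These shares include genes with few reads. At a minimum of 50 normalized counts they fell to 2.12% lower and 2.65% higher in TRP1high, and to 4.05% and 4.26% in TRP1low. Counting error alone was exceeded by 9 of 10 genes in TRP1high (all but Trp53), against 54.4% of all genes, and by 9 of 10 in TRP1low (all but Zmat3), against 56.9%. That share rises with the reads per gene, and the members had many reads, so nothing is read from it about the members.

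Between the receptors, the members went both ways. With K8, 5 of 10 were higher in TRP1high and 5 lower, with a median log2 difference of 0.02, against -0.002 over all genes. Sesn1 and Btg2 were at least 2-fold lower in TRP1high with K8 and 0 members at least 2-fold higher, where 8.35% of all genes were lower and 10.6% higher. With M9, again 5 were higher and 5 lower, with a median of -0.01, against -0.03 over all genes. The members' differences then ran from -0.51 (Sesn1) to 0.60 (Phlda3), and 0 of 10 reached 2-fold, where 5.58% of all genes were lower and 7.37% higher. The differences of 8 members exceeded counting error with M9, against 58.9% of all genes, and those of all 10 did with K8, against 62% of all genes. As between the peptides, that share rises with the reads per gene, so nothing is read from it about the members.

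**Figure D3:**
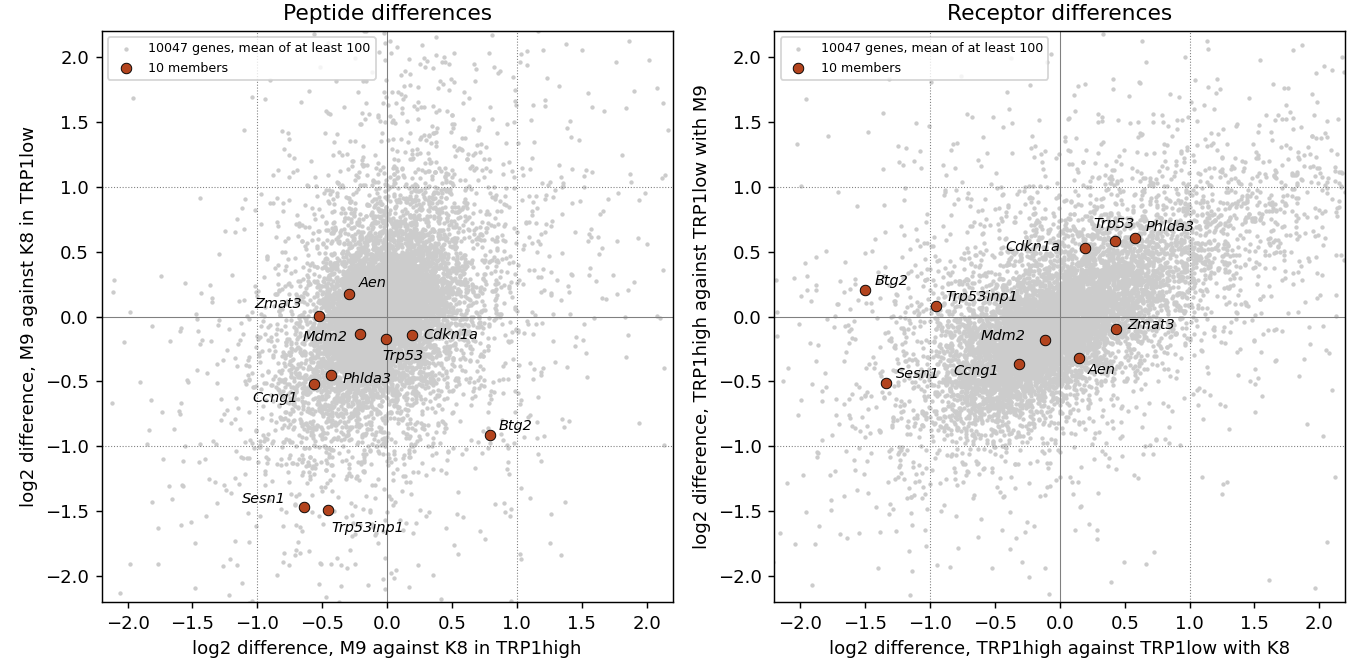
Log2 differences of the 10 genes (orange) over those of 10047 genes whose mean reached 100 normalized counts (grey); dotted lines mark 2-fold. The left panel plots M9 against K8 in TRP1high (x axis) and in TRP1low (y axis), and the right panel TRP1high against TRP1low with K8 (x axis) and with M9 (y axis). Beyond the axes lie 246 genes on the left and 331 on the right, none of them members. On the left Sesn1 and Trp53inp1 lie below the lower 2-fold line and Btg2 lies to the right of 0 (higher with M9 in TRP1high) and below 0 on the y axis (lower with M9 in TRP1low).

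The gap between the peptide differences of the 2 receptors was at least 2-fold for 2 of 10 members, Btg2 (1.70) and Trp53inp1 (1.04), both with the higher value in TRP1high, and Sesn1 lay at 0.82. By the same rule 6.14% of all genes were at least 2-fold higher in TRP1high and 7.23% lower, and the median gap was -0.06 over all genes and 0.09 over the members. No replicate stands behind any of these gaps.

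Across the order of the 4 libraries, 7 of 30 neighbouring pairs of values over the 10 genes were not apart beyond counting error. That count depends on the reads per gene and was not made over all genes, so nothing is read from it about the members. TRP1low with K8 was the highest library for 5 members (Mdm2, Ccng1, Sesn1, Trp53inp1 and Btg2) and the lowest for 0, where it was the highest for 31.2% and the lowest for 31.6% of all genes. TRP1high with M9 was the lowest library for 5 members (Mdm2, Ccng1, Sesn1, Aen and Zmat3), against 28.2% of all genes. Both K8 libraries were above both M9 libraries for 4 members (Mdm2, Ccng1, Sesn1 and Trp53inp1), against 15.7% of all genes, and below both for 0 members, against 16.8%.

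The rest of the pathway was read from lists of other p53 targets, of p53 regulators and of cell cycle genes that p53 lowers through p21 and the DREAM repressor complex. Members and lists alike were chosen with earlier results of these data known, so the contrast of their medians is a description. The 28 other targets did not share the members' lower values with M9: their median log2 difference was 0.02 in TRP1high and -0.02 in TRP1low. In TRP1high 3 were at least 2-fold higher with M9 (Perp, Dram1 and Ephx1) and 1 lower (Ak1, within counting error), where 5.14% of all genes were higher and 4.73% lower. In TRP1low 1 was higher (Perp) and 2 were lower (Xpc and Eda2r), where 7.67% of all genes were higher and 7.43% lower. The pro-apoptotic gene Bax was near level between the peptides, at log2 12.59 with K8 and 12.64 with M9 in TRP1high and at 12.30 with K8 and 12.31 with M9 in TRP1low. Ak1, Dram1 and Eda2r had few reads, from 3 to 29 per library.

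Perp, which encodes a membrane protein of p53-dependent cell death and of cell junctions, was the 1 gene of this list that differed at least 2-fold the same way in both receptors. It stood at 543 normalized counts with K8 and 2448 with M9 in TRP1high, and at 271 with K8 and 1270 with M9 in TRP1low. Both M9 libraries were above both K8 libraries, 4.51-fold in TRP1high (4.11 to 4.96) and 4.69-fold in TRP1low (4.03 to 5.48). That direction is opposite to that of 6 of the 10 members.

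Between the receptors, the other targets had medians of 0.17 with K8 and 0.28 with M9, the higher side being TRP1high. With K8, 3 of the 28 were at least 2-fold higher in TRP1high (Sesn2, Perp and Dyrk3) and 0 lower, where 10.6% of all genes were higher and 8.35% lower. With M9 2 were higher (Dram1 and Dcxr) and 1 lower (Ak1, within counting error), where 7.37% of all genes were higher and 5.58% lower. Nothing is read from these counts about the other targets. Sesn2, the second sestrin, did not follow Sesn1: it stood at 981 normalized counts with K8 and 902 with M9 in TRP1high, and at 395 with K8 and 498 with M9 in TRP1low. It was 2.48-fold higher in TRP1high with K8 (2.18 to 2.84), where Sesn1 was 2.53-fold lower.

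Of the 14 p53 regulators listed, 13 were in the files and 12 passed the filter on the mean. Their medians were -0.35 with M9 in TRP1high and -0.19 in TRP1low, against -0.02 and 0.02 over all genes. Chek2, the DNA damage checkpoint kinase that phosphorylates p53, was the 1 regulator at least 2-fold apart the same way between the receptors with both peptides. It stood at 247 normalized counts with K8 and 242 with M9 in TRP1high, and at 1020 with K8 and 818 with M9 in TRP1low, so TRP1high was 4.12-fold (3.57 to 4.78) and 3.38-fold (2.92 to 3.91) below TRP1low. Mdm4, the MDM2 relative that blocks p53, had lower values with M9 in both receptors, by log2 differences of -0.36 and -0.41. Ep300, an acetyltransferase that acts with p53, was 2.12-fold lower with M9 in TRP1high (1.97 to 2.28). Cdkn2a, whose ARF product restrains MDM2, had 18 reads or fewer in every library and 0 in TRP1low with K8.

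The 16 cell cycle genes on the p21 and DREAM list differed little, with medians between -0.14 and 0.03 in the 4 comparisons. In TRP1high 0 of 16 were 2-fold apart between the peptides, where 5.14% of all genes were higher and 4.73% lower. In TRP1low 1 was, where 7.67% of all genes were higher and 7.43% lower. It was Mki67, 2.90-fold higher with M9 (2.56 to 3.30). Mki67, the proliferation marker Ki-67, was also the exception between the receptors, at log2 12.54 and 12.47 in TRP1high and 8.77 and 10.30 in TRP1low with K8 and M9. Top2a, which encodes a topoisomerase of dividing cells, was 2.65-fold higher in TRP1high with K8 (2.58 to 2.73). Of the 16, 2 were thus at least 2-fold higher in TRP1high with K8, where 10.6% of all genes were, and 1 with M9, where 7.37% were. In TRP1high 0 were lower with either peptide, where 8.35% of all genes were with K8 and 5.58% with M9. The other 14 genes of the list were within 2-fold in each comparison, among them Cdk1, which stood between log2 12.56 and 12.86.

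**Figure D4:**
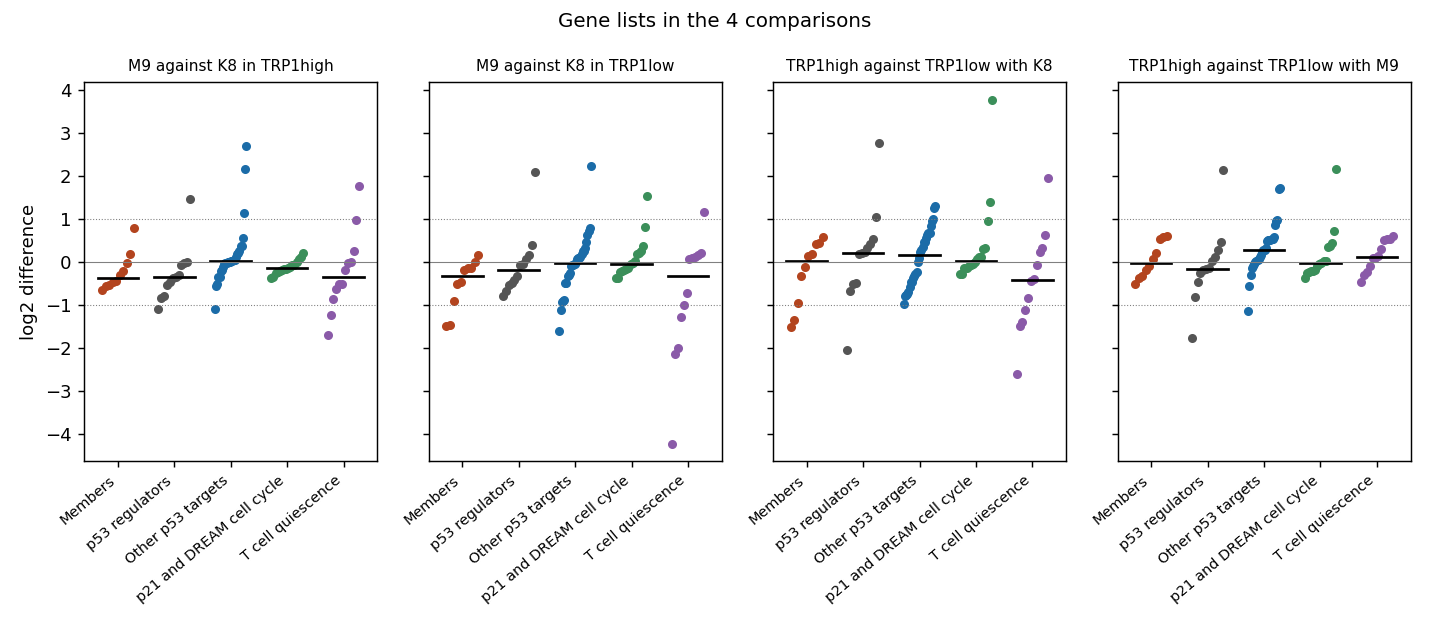
Log2 difference of every measured gene of 5 groups in the 4 comparisons, with 1 point per gene and a bar at the group's median. The dotted lines mark 2-fold. The members' medians lie below 0 with M9 in both receptors (-0.36 and -0.31) and near 0 between the receptors (0.02 and -0.01), and the cell cycle genes have medians near 0, with Mki67 and Top2a past the upper 2-fold line and Mybl2 just under it (0.95) for TRP1high against TRP1low with K8.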

How the data were processed

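RNA sequencing of 4 libraries of sorted mouse T cells gave 1 library per group, with groups taken from the sample titles. The values that the authors deposited are log2 normalized counts, per the file headers, with 1 per gene symbol. The smallest value was 0, so the scale was read as log2(normalized count + 1). Per the submitters' processing notes, Salmon 0.8.2, DESeq2 1.20.0 and mm10 were used; settings and annotation were not stated. Low values piled up at multiples of 1 step per library (0.989 to 1.37 normalized counts), taken as the worth of 1 read, which gave the estimated reads, rounded for intervals. Because Salmon estimates counts, they need not be whole, and no count test was run. The authors' scaling was kept. Log2 differences were computed for 16102 rows whose mean reached 1 normalized count. A difference was called at 2-fold where either library of the pair reached 10 normalized counts. Gene positions and transcript lengths came from GENCODE M21 (GRCm38, mm10), and lengths were those of the principal transcript, so that values per kilobase are approximate. Promoters came from RefSeq. The steps were tested on simulated data and run in Python 3.11.15 with scipy 1.17.1.

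The 10 genes and the lists were chosen with earlier results of these data known. Named genes were all members and those list genes 2-fold apart the same way in both pairs of a comparison. Other list genes past 2-fold are named only in part. Bax, Mdm4, Cdkn2a, Cdk1, Sesn2, Ep300 and Top2a were described after their values were seen. For members with a range of at least 1 on the log2 scale, the 3 genes closest in pattern were named.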

Additional observations from a re-analysis of the deposited data

Results flagged for a closer look

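Of the 10 genes, 5 had a difference that ran in opposite directions in 2 groups, none of which was tested, since each group held 1 library. Between the peptides, the log2 difference of M9 against K8 was 0.79 in TRP1high and -0.91 in TRP1low for Btg2, a gap of 1.70. For Cdkn1a it was 0.19 and -0.14, a gap of 0.34. Aen went the other way, at -0.29 and 0.17, a gap of -0.46, and so did Zmat3, at -0.53 and 0.01, a gap of -0.53, where the second value lay within counting error.

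Between the receptors, the log2 difference of TRP1high against TRP1low was -1.50 with K8 and 0.20 with M9 for Btg2, a gap of -1.70. It was -0.95 and 0.08 for Trp53inp1, a gap of -1.04, where the second value lay within counting error. Aen had 0.15 and -0.32, a gap of 0.46, and Zmat3 had 0.44 and -0.10, a gap of 0.53, again with the second value within counting error. These gaps are the same values as those between the peptides with the sign turned, because both come from the same 4 libraries.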

How the results depend on the processing

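Pseudocounts of 0.5 and 5, equal totals, equal upper quartiles and median log2 ratios set to 0 left the number of members 2-fold apart the same in each comparison, as did no filter on low values and a minimum of 50 normalized counts. A fold of 1.5 in place of 2 raised the count from 0 to 2 for M9 against K8 in TRP1high (Sesn1 lower and Btg2 higher, where 9.54% of all genes were lower and 10.1% higher) and from 0 to 1 for TRP1high against TRP1low with M9 (Phlda3 higher, where 14.1% of all genes were). In the 3 other comparisons it went from 2 to 3, with Sesn1, Trp53inp1 and Btg2 in each. They were lower with M9 in TRP1low, where 13.1% of all genes were. With K8 they were lower in TRP1high than in TRP1low, where 15.8% of all genes were. Their peptide difference was higher in TRP1high than in TRP1low, where that of 11.2% of all genes was. Over the scalings and pseudocounts the members' median ran from -0.384 to -0.319 for the peptides in TRP1high, from -0.375 to -0.309 in TRP1low, from -0.006 to 0.057 for the receptors with K8 and from -0.008 to 0.046 with M9, so the sign of the last pair is not settled. Of 250 values of single members under these 5 alternatives, 3 changed sign, all of differences under 0.02 in size: Trp53 between the peptides in TRP1high (0.007 with median ratios at 0 and 0.029 with equal upper quartiles, against -0.012) and Zmat3 between the peptides in TRP1low (-0.055 with equal totals, against 0.008). The largest shift was 0.063. Ccng1 alone moved beyond its counting interval, in 5 values: to -0.581 between the peptides in TRP1low and -0.322 between the receptors with M9 (equal totals), to -0.279 and -0.310 between the receptors with K8 and M9 (median ratios at 0), and to -0.524 between the peptides in TRP1high (equal upper quartiles). No paired analysis was possible because each group held 1 library, and for the same reason no library could be left out. The read depth does not limit the members, and the lack of replicates does: differences such as the 1.15-fold one of Mdm2 exceed counting error and cannot be set against variation between cultures.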

Other observations

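Relatives of the members did not move as 1 group. Of 15 listed, 12 were in the files, with median log2 differences with M9 of 0.27 in TRP1high and 0.05 in TRP1low. Sesn3, the third sestrin, stood at 2305 normalized counts with K8 and 2308 with M9 in TRP1high, and at 5327 with K8 and 2460 with M9 in TRP1low. As for Sesn1, TRP1low with K8 was above the rest, and M9 was 2.17-fold below K8 in TRP1low (2.06 to 2.28) and level with it in TRP1high. Ccng2, which encodes cyclin G2, stood at 827, 1137, 1692 and 1094 in the same order, highest in TRP1low with K8 and lowest in TRP1high with K8, as Btg2 was, with the M9 libraries between and not apart beyond counting error. Trp53inp2, a relative of Trp53inp1 that acts in autophagy, was 2.82-fold higher with M9 in TRP1high (2.21 to 3.59) and 1.86-fold higher in TRP1low (1.42 to 2.43), while Trp53inp1 was lower in both. In TRP1low 2 of 12 relatives, Sesn3 and Isg20, were at least 2-fold lower with M9 and 0 higher, where 7.43% of all genes were lower and 7.67% higher. Isg20 had few reads there, 45 with K8 and 27 with M9.

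Of 14 listed cyclin and kinase inhibitor genes, 13 were in the files. Between the peptides 0 were 2-fold apart in TRP1high, where 5.14% of all genes were higher and 4.73% lower. In TRP1low 1 was (Ccnd1, lower at few reads), where 7.67% of all genes were higher and 7.43% lower. Cdkn1b, which encodes the inhibitor p27, was 1.998-fold lower with M9 in TRP1low (1.79 to 2.24) and level in TRP1high. Between the receptors with K8, Cdkn1c was 2-fold higher in TRP1high at few reads (10 against 3) and Ccng2 2-fold lower. By the same rule 10.6% of all genes were higher and 8.35% lower. Of the 12 T cell quiescence genes, Klf2 and S1pr1 were lower with M9 by 2-fold or more in each receptor. Slfn2 was higher with M9 in TRP1high, by a log2 difference of 1.77. In TRP1low Foxp1 was higher with M9 by 1.17, and Pik3ip1 and Il7r were lower, by differences of -1.28 and -1.99. Thus 1 of the 12 was higher and 2 lower in TRP1high, and 1 was higher and 4 lower in TRP1low. The shares of all genes in these comparisons are those given above between the peptides. Genes on more than 1 list are counted in each. These lists hold genes picked with earlier results known, and Sesn3, Ccng2, Trp53inp2 and Cdkn1b were described after their values were seen.

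For 4 members with a range of at least 1 on the log2 scale, the genes with the most similar pattern were found among 10047 genes, by the Euclidean distance between log2 values centred on each gene's mean. Over only 4 libraries many genes lie close, and the distances are descriptions. The nearest to Sesn1 were Fam78a (0.11), Pus7l (0.16) and Pik3ip1 (0.20), and the nearest to Trp53inp1 were Ehd3 (0.11), Gbp8 (0.12) and Pxylp1 (0.14). The nearest to Btg2 were Traf1 (0.11), Gm4724 (0.12) and Snx11 (0.19), and those to Phlda3 were Dtx1 (0.086), Mns1 (0.086) and Bcl11b (0.10).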
